A study of Drosophila melanogaster with 18 samples.

Results

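The male germline specific transcript (*Mst*) genes are a set of *Drosophila* genes first known from RNA found only in males with a germline. They were taken here by symbol, together with other genes of sperm structure. The rule took symbols that open with Mst and a digit, without the *Mst57D* genes, which code for seminal fluid peptides. It added the *S-Lap* genes, the *Stellate* genes (*Ste:* and *Ste12DOR*), *loopin-1*, *dj* (don juan) and the protamine genes. The rule itself used no expression value, but it was set with earlier results of these data known. Of the 15682 gene symbols counted, 38 met the rule, and both protamine genes stood under their older symbols *Mst35Ba* and *Mst35Bb*. The 38 genes comprise 13 *Stellate* genes, 8 aminopeptidase genes (7 *S-Lap* genes and *loopin-1*), 7 genes of the Cys-Gly-Pro repeat (CGP) family of the sperm tail, 5 other *Mst* genes, 4 protamine and *Mst77* genes, and *dj*.

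These genes are read out in primary spermatocytes of the testis, and many of the transcripts are stored and translated only later, in elongating spermatids. Protamines then take the place of histones on sperm DNA, CGP proteins build part of the sperm tail, and leucyl aminopeptidases pack into the mitochondrial derivative that runs along it. *Stellate* is a tandem repeat on the X chromosome that codes for a protein related to the beta subunit of casein kinase 2, and in normal males its RNA is kept low by small RNAs from the *Suppressor of Stellate* repeats on the Y chromosome. The testis and the accessory glands lie in the abdomen, so neither a thorax nor a head is a tissue in which these genes are known for a role.

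RNA-seq was used to ask how the drug RU486 alters gene expression in flies with and without the drug-inducible GeneSwitch Gal4. All flies were males, kept for 4 days on normal food after eclosion and then for 10 days on food carrying 100 µM RU486 in ethanol, or only the ethanol (control). The 18 samples fall into 6 groups of 3. In *Act88F-GS-Gal4* thoraces the promoter of the flight muscle actin *Act88F* drives GeneSwitch, in a line selected for low leakiness without the drug. In *elav-GS-Gal4* heads the neuronal *elav* promoter drives it. The *w1118* thoraces carry no GeneSwitch. No UAS transgene is named for these samples. The replicates are described as biological, and nothing says how the flies were divided among them, so p-values measure the spread between these samples.

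CPM values here are read counts put on a common scale for library size by TMM, a method that evens out library composition, over all 18 libraries. Reads counted on genes ran from 34020840 to 96176923 per library. The tissue labels matched defining markers: 11 head genes, such as the opsin *ninaE*, summed to 46174 to 75539 CPM in heads and to 105 to 2004 in thoraces. The 2004 was *Act88F-GS-Gal4* control 1, and the other thoraces lay at 345 or lower. In that control *ninaE* stood at 978 CPM, against 26.3 and 36.6 in controls 2 and 3, and the cause was not tested. *Act88F* stood at 133 to 2882 CPM in thoraces and 1.56 to 4.90 in heads. A list of 11 muscle genes that includes it summed to 9998 to 24849 CPM in thoraces and 3068 to 5653 in heads. Of the 18 libraries, 3 stood apart in genes of the male reproductive tract, each from the rest of its own group. They were head control replicates 1 and 2, which were high, and *w1118* RU486 replicate 1, which was low. Summed over 33 accessory gland genes, with *PebIII* left out, head controls 1, 2 and 3 held 1528, 462 and 5.37 CPM, the *w1118* controls 1554, 1313 and 1755, and *w1118* RU486 replicates 1, 2 and 3 held 14.5, 520 and 757. The RU486 heads held 4.40 to 4.53 CPM and the 6 *Act88F-GS-Gal4* libraries 4.44 to 23.9. *PebIII* was left out after its values were seen, since it stood at 610 to 4598 CPM in every library. With it, the sum over 34 genes was 2607 to 3096 CPM in head controls, 3756 to 4602 in RU486 heads, 615 to 1616 in *Act88F-GS-Gal4* thoraces and 1849 to 3415 in *w1118*. A list of 15 midgut genes was also uneven among head controls 1, 2 and 3, at 1521, 711 and 238 CPM, against 65.1 to 100 in the RU486 heads. The part of these genes in the results was not tested.

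The members were high in some libraries and summed to about 20 CPM in the others. Summed over the 38 members, the *w1118* controls held 1750, 3191 and 3764 CPM, which was 0.195%, 0.351% and 0.388% of the reads on genes. The *w1118* RU486 libraries held 106, 2908 and 1082 CPM. Head controls held 3460, 992 and 23.7 CPM, and RU486 heads held 20.3, 21.4 and 21.6. The *Act88F-GS-Gal4* thoraces held 20.05, 18.7 and 18.5 CPM in controls and 17.0, 19.0 and 22.0 after RU486. Between the highest and the lowest library of the same group the sum therefore differed more than 100-fold in head controls, where replicate 1 was the highest of the 3 and replicate 3 the lowest.

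**Figure D1:**
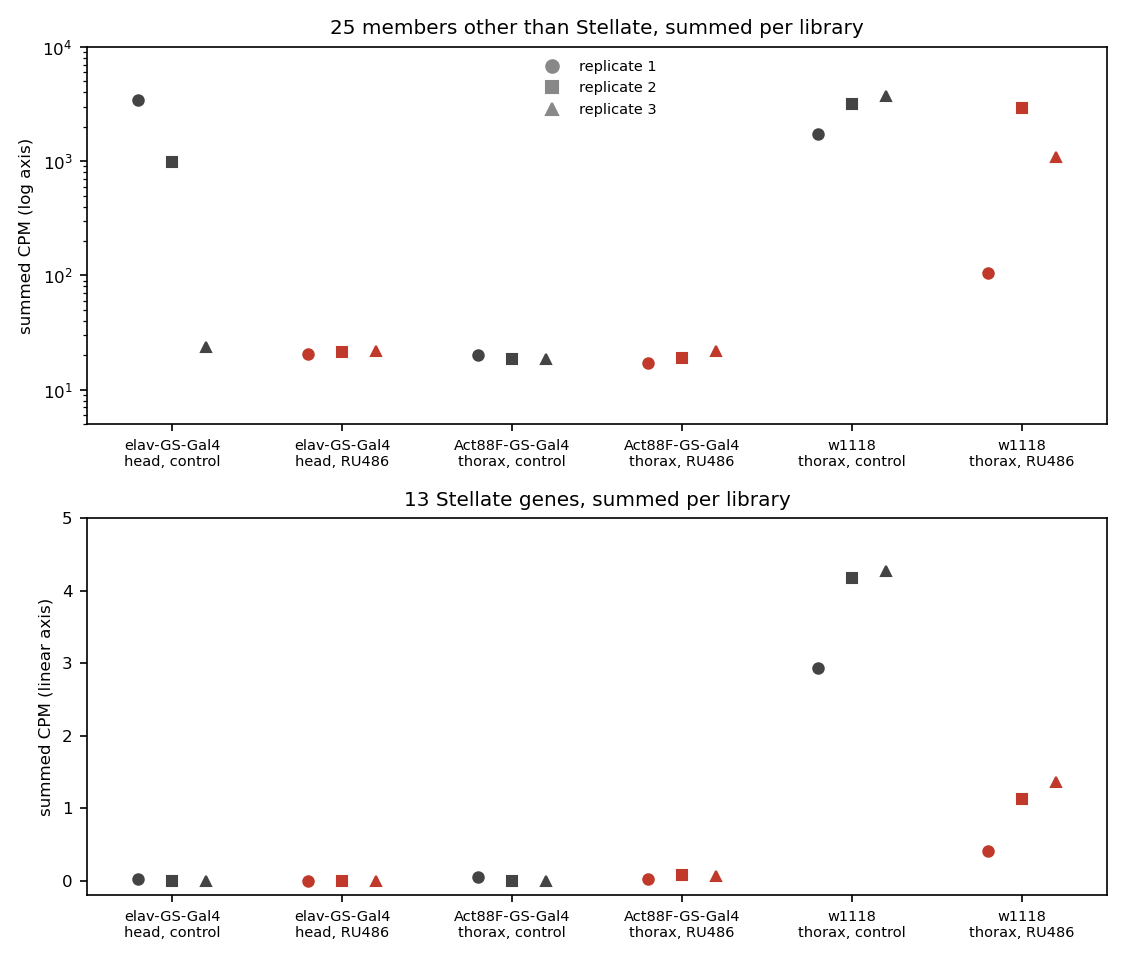
Summed CPM of the 25 members other than *Stellate* (upper panel, log axis) and of the 13 *Stellate* genes (lower panel, linear axis) in each library, with a point per library, grey for control and red for RU486. The 6 *Act88F-GS-Gal4* libraries and 4 of the 6 head libraries lie near 20 CPM in the upper panel, while the *Stellate* sum exceeds 0.1 CPM only in *w1118*.

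Where the total was about 20 CPM, most of it came from *Mst85C* alone. This gene stood at 10.4, 13.6 and 15.3 CPM in head controls, 12.4, 13.8 and 14.5 in RU486 heads, 15.4, 14.0 and 13.8 in *Act88F-GS-Gal4* controls, 12.02, 13.6 and 12.6 after RU486 in that stock, 11.7, 12.6 and 10.9 in *w1118* controls and 12.9, 12.4 and 11.3 after RU486. Its level was thus within 10.4 to 15.4 CPM in all 18 libraries, and it did not follow the other members. An exon of it overlaps *Nmdmc* on the other strand by 7 bases.

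The other *Mst* genes are *Mst33A*, *Mst36Fa*, *Mst36Fb* and *Mst89B*. *Mst36Fb* stood at 18.7, 6.59 and 2.74 CPM in head controls, 2.51, 2.47 and 2.07 in RU486 heads, 1.34, 1.51 and 1.16 in *Act88F-GS-Gal4* controls, 1.41, 1.01 and 1.36 after RU486 there, 11.6, 17.4 and 20.7 in *w1118* controls and 2.82, 13.7 and 7.43 after RU486. It was low but present in every library, with at least 38 reads, and was higher in *w1118* and in head controls 1 and 2 than in any other library. Its neighbour *Mst36Fa* behaved alike, at 1.20 to 1.54 CPM in the *Act88F-GS-Gal4* libraries and 7.81 to 16.6 CPM in the *w1118* controls. *Mst33A* had no such base level: it stood at 57.0, 15.8 and 0.0143 CPM in head controls and at 24.3, 43.9 and 55.1 in *w1118* controls, against 1.45, 39.4 and 14.6 in *w1118* after RU486. It had 0 or 1 read in each RU486 head library and no read in any of the 6 *Act88F-GS-Gal4* libraries. *Mst89B* stood at 9.07 to 18.2 CPM in *w1118* controls and at 0 to 0.127 CPM in *Act88F-GS-Gal4* thoraces.

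Among genes of sperm chromatin, *Mst77F*, a protamine-like protein needed for nuclear shaping, was the most abundant. It stood at 145, 43.5 and 0.731 CPM in head controls, 0.704, 0.714 and 0.557 in RU486 heads, 0.871, 0.893 and 0.884 in *Act88F-GS-Gal4* controls, 0.600, 0.826 and 1.62 after RU486 there, 60.8, 116 and 143.5 in *w1118* controls and 3.64, 103 and 39.7 after RU486. A low level of *Mst77F*, with at least 26 reads, was thus present in every library. *Mst35Bb*, protamine B, stood at 25.9, 7.4997 and 0.0143 CPM in head controls and at 14.9, 26.2 and 31.9 in *w1118* controls, against 1.24, 25.3 and 10.45 in *w1118* after RU486. *Mst35Ba*, protamine A, stood at 18.7, 5.28 and 0 CPM in head controls and at 10.3, 19.35 and 22.9 in *w1118* controls, against 0.674, 17.7 and 7.10 in *w1118* after RU486. Neither protamine gene had a read in any *Act88F-GS-Gal4* library, and in RU486 heads both together had 1 read. Set against 3 reads over the 6 *Act88F-GS-Gal4* libraries, the *w1118* controls were at least 2006-fold higher for *Mst35Bb* and at least 1443-fold higher for *Mst35Ba*. The fourth gene, *Mst77Y-16Psi*, is a pseudogene of the Y-linked copies of *Mst77F*, and it stayed at 1.08 CPM or lower in all 18 libraries.

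The CGP family holds *Mst84Da*, *Mst84Db*, *Mst84Dc*, *Mst84Dd*, *Mst87F*, *Mst98Ca* and *Mst98Cb*. *Mst98Ca* was the highest of them in CPM, at 126.7, 38.2 and 0.0430 in head controls, 83.3, 148 and 171 in *w1118* controls and 4.21, 147 and 50.7 in *w1118* after RU486. It had no read in the 3 RU486 heads and 5 reads in all over the 6 *Act88F-GS-Gal4* libraries. Its level in *w1118* controls was 6644-fold higher than over those 6 libraries (95% counting interval 2847 to 20463).

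*Mst87F* stood at 80.8, 21.8 and 0.0860 CPM in head controls, 52.3, 102 and 110 in *w1118* controls and 3.44, 84.6 and 33.35 in *w1118* after RU486, with 0 to 12 reads in each remaining library. *Mst98Cb* stood at 68.5, 20.5 and 0.0430 CPM in head controls, 41.2, 75.7 and 86.9 in *w1118* controls and 2.30, 72.0 and 26.3 in *w1118* after RU486, with 0 to 4 reads in each remaining library. Over the whole family, *w1118* control 3 held 585 summed CPM, head control 1 held 472, head control 2 held 130.6 and *w1118* RU486 replicate 1 held 15.7. The lowest 10 libraries held 0.0607 to 0.274.

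The aminopeptidases made up most of the member reads wherever these were high, at 72.9% to 73.2% in *w1118* controls and 73.9% and 73.5% in head controls 1 and 2. *S-Lap1* was the most abundant member, at 536, 147 and 2.11 CPM in head controls, 280, 506 and 607 in *w1118* controls and 14.3, 463 and 166 in *w1118* after RU486. It also kept a base level elsewhere, at 1.87, 1.59 and 1.88 CPM in RU486 heads, 0.467, 0.515 and 0.549 in *Act88F-GS-Gal4* controls and 0.789, 0.933 and 3.585 after RU486 in that stock. In *Act88F-GS-Gal4* thoraces every RU486 value of *S-Lap1* lay above every control value, and RU486 replicate 3 was the highest.

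*loopin-1*, first described on the Y chromosome loops of spermatocytes, stood at 447, 126.4 and 0.0143 CPM in head controls, 213, 393 and 452 in *w1118* controls and 9.64, 368 and 132 in *w1118* after RU486. *S-Lap7* stood at 411, 118 and 0.0573 CPM in head controls, 214, 402 and 470 in *w1118* controls and 8.79, 372 and 130 in *w1118* after RU486. Both were at 0.183 CPM or lower in every *Act88F-GS-Gal4* library and every RU486 head. *S-Lap5* was the lowest of the 8 in *w1118*, at 15.9 to 34.1 CPM in controls, and in *Act88F-GS-Gal4* thoraces it stood at 0.0914 to 0.191 CPM in controls and 0.189 to 0.698 after RU486, a range that overlaps.

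*dj* codes for a protein of the sperm tail whose translation waits until spermatids elongate. It stood at 119.5, 30.2 and 0.0430 CPM in head controls, 43.4, 82.3 and 97.9 in *w1118* controls and 2.32, 69.0 and 25.8 in *w1118* after RU486. It had 2 reads in all in RU486 heads, 5 reads in all in *Act88F-GS-Gal4* thoraces after RU486 and none in their controls.

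Reads counted on the *Stellate* genes were found in *w1118* and hardly anywhere else. Summed over the 13 genes, the *w1118* controls held 315, 376 and 368 reads (2.94, 4.17 and 4.27 CPM) and the *w1118* RU486 libraries 29, 114 and 88 reads (0.407, 1.12 and 1.36 CPM). Each *w1118* RU486 sum lay below each control sum. Over all 13 genes the head controls held 2, 0 and 0 reads, the RU486 heads none, and the *Act88F-GS-Gal4* libraries 0 to 4. Head control 1 therefore had 2 *Stellate* reads, where its other members together exceeded those of *w1118* control 1.

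*Ste:CG33242* stood at 0.503, 0.554 and 0.719 CPM in *w1118* controls and at 0.0281, 0.207 and 0.324 after RU486, with 0 to 2 reads in every other library. *Ste:CG33239* stood at 0.494, 0.620 and 0.638 CPM in *w1118* controls and at 0.0702, 0.128 and 0.216 after RU486. *Ste:CG33237* stood at 0.466, 0.698 and 0.556 CPM in *w1118* controls and at 0.0702, 0.118 and 0.247 after RU486. Neither of the last 2 had a read outside *w1118*, and for all 3 genes the RU486 values lay below the control values. The copies are nearly identical, and 2.89% to 11.7% of listed reads were set aside as mapping to more than 1 place, so how reads divide among single *Stellate* copies is uncertain. That share was 2.89% to 4.95% in *w1118*, 5.28% to 9.66% in *Act88F-GS-Gal4* and 10.1% to 11.7% in heads. The *Stellate* sums also hold only reads placed at 1 position, and the part of this in the differences between stocks was not tested.

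**Figure D2:**
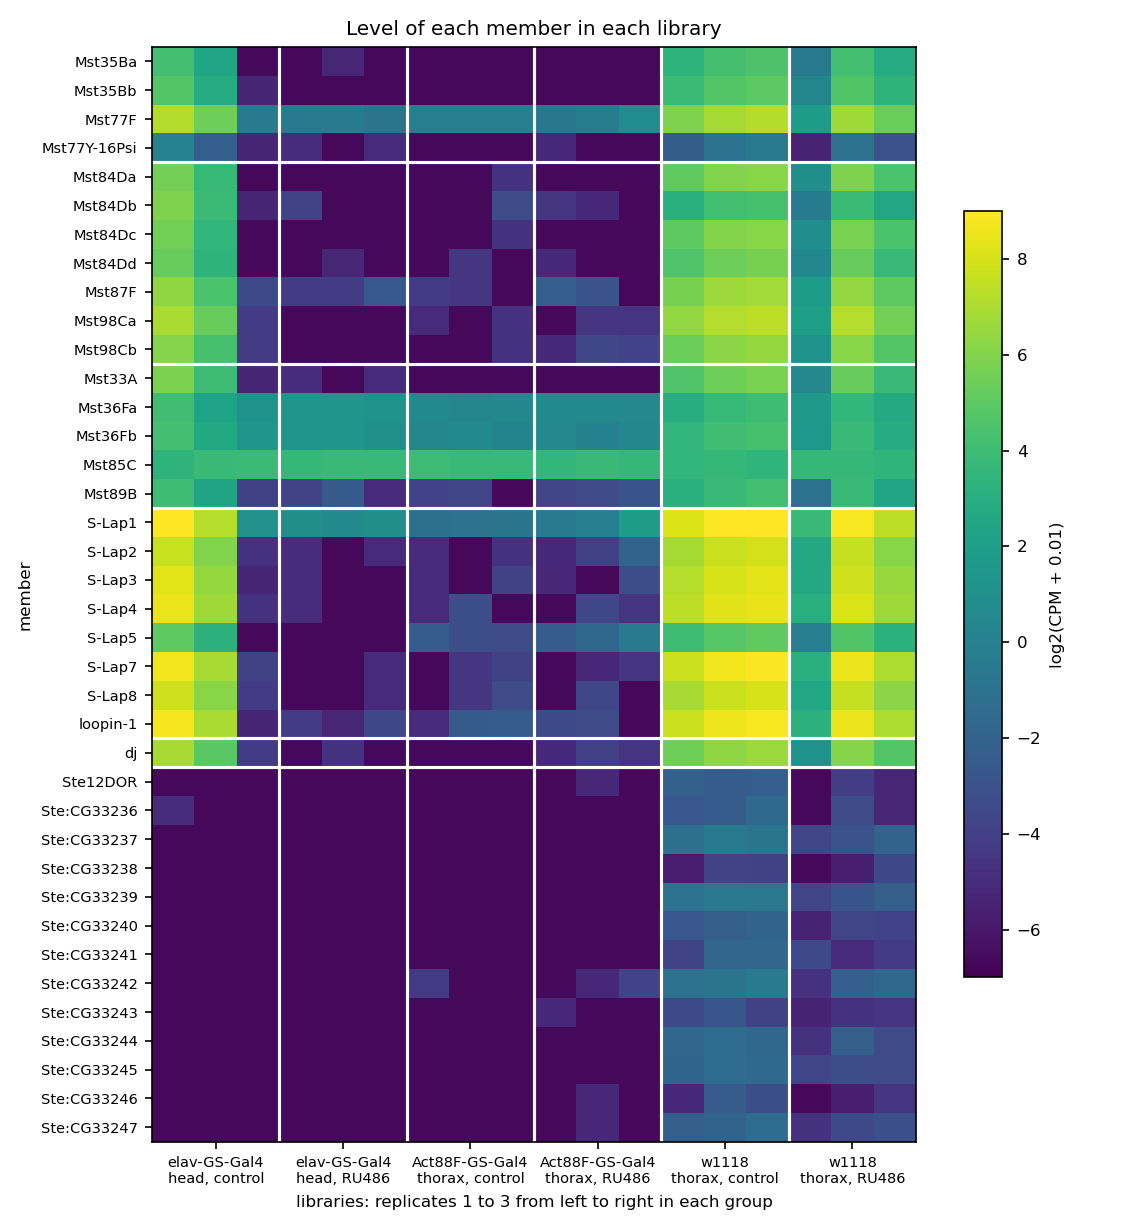
Level of each of the 38 members in each of the 18 libraries as log2(CPM + 0.01), grouped by role from protamines at the top to *Stellate* at the bottom, with libraries 1 to 3 of each group from left to right. Head controls 1 and 2 stand above head control 3 in 24 of the upper 25 rows but not in the *Stellate* rows, and *Mst85C* is even across all columns.

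Per length, with exon lengths from the annotation of BDGP6.54, the order in *w1118* controls was led by *S-Lap1* at 219 ± 79.0 FPKM (SD, n = 3), *S-Lap7* at 171 ± 62.5 and *loopin-1* at 164 ± 58.1. *Mst84Da* followed at 158 ± 55.9 FPKM, *Mst84Dc* at 155 ± 57.1 and *Mst87F* at 141 ± 50.3. Each SD is a spread between libraries that was mostly shared by the genes of a library. It does not measure differences between genes, which were not tested. *Mst85C* stood at 8.04 ± 0.581 FPKM and the single *Stellate* genes at 0.0733 to 0.980 FPKM.

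Within a library, the proportions of the members to each other were steady across *w1118*. The share of each of the 24 members other than *Stellate* and *Mst85C* in their summed reads was set against its mean share in the *w1118* controls. All 24 were within 1.5-fold in *w1118* RU486 replicates 2 and 3, and 21 of 24 in replicate 1, where *Mst36Fa* was 7.66-fold higher. In head controls 1 and 2, 22 of 24 were within 1.5-fold, and *Mst84Db* stood furthest out, at 3.16-fold and 2.83-fold. These shares are a description, since the libraries were compared after their levels were known.

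*Mst84Db* was singled out after its values were seen. Its reads per read of its cluster neighbour *Mst84Dc* numbered 1.21 (95% exact interval 1.17 to 1.26) in head control 1 and 1.32 (1.18 to 1.49) in head control 2. In *w1118* controls the ratio was 0.279, 0.277 and 0.285, and after RU486 it was 0.406 (0.288 to 0.565), 0.272 and 0.267. Both head values lay above all 6 thorax values, beyond counting error, which is all that these intervals cover. By contrast, *Mst35Ba* per *Mst35Bb* was 0.722 and 0.704 in head controls 1 and 2 and 0.691, 0.739 and 0.719 in *w1118* controls, and *Mst84Da* per *Mst84Dc* was 1.03 and 1.15 in the same heads and 1.05, 0.971 and 1.02 in *w1118* controls. Stock and tissue both differ between these heads and thoraces and cannot be told apart.

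*Stellate* was set against *betaTub85D*, the testis beta tubulin, which is no member. Reads mapping to more than 1 place are missing from these counts as well. Per 1000 *betaTub85D* reads there were 26.4, 20.6 and 17.7 *Stellate* reads in *w1118* controls and 69.0 (95% exact interval 45.7 to 101), 6.66 (5.49 to 8.002) and 20.2 (16.2 to 24.9) after RU486. The RU486 values thus lay above, below and within the control range. In head control 1 the value was 0.0962 (0.0116 to 0.347), and in head control 2 there were 0 of 2877, which allows up to 1.28. The other members per *betaTub85D* read were nearly level, at 15.1 and 15.2 in head controls 1 and 2, 15.6 to 15.7 in *w1118* controls and 17.8, 17.2 and 16.1 in *w1118* after RU486.

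**Figure D3:**
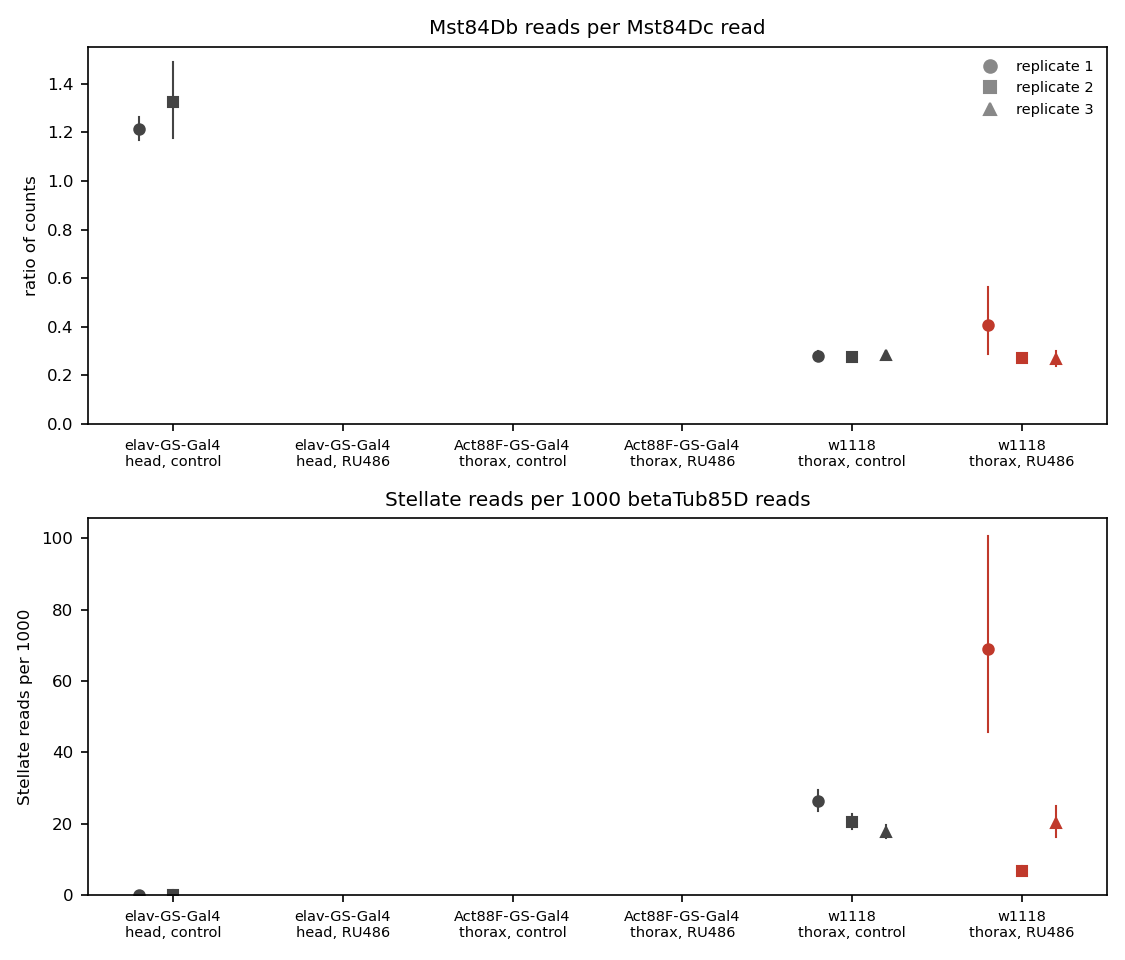
Reads of *Mst84Db* per read of *Mst84Dc* (upper panel) and summed *Stellate* reads per 1000 reads of *betaTub85D* (lower panel) in libraries with enough reads, with bars for 95% exact counting intervals. Head controls 1 and 2 are high in the upper panel, at 1.21 and 1.32, and at or near 0 in the lower, and groups with no point held too few reads for a ratio.

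In *w1118* thoraces, which have no GeneSwitch, the comparison of RU486 with control asks what the drug does on its own. Of the 38 members, 34 passed the filter on low counts, and each of them had a lower fitted level after RU486, against 54.3% of all 12980 genes tested. None was called at an adjusted p under 0.05 (edgeR quasi-likelihood test), as was none of all genes (0%). At an unadjusted p under 0.05, 7 members were lower, against 4.08% of all genes, and none was higher, against 5.12%. DESeq2 called 2 members lower at an adjusted p under 0.05, *Ste:CG33239* and *Ste:CG33245*, against 0.732% of all genes, while limma voom called none. The median log2 fold change of the 34 was -1.14, beside -0.02 over all genes. With the replicate number as a block, since same-numbered *w1118* samples deviated together, the median was -2.03. All other values given for this comparison come from fits without the block.

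The 7 members were all *Stellate* genes. Named after its values were seen, *Ste12DOR* had a log2 fold change of -3.06 ± 0.78 (SE), on 24, 16 and 18 reads in controls and 0, 5 and 1 after RU486. For *Ste:CG33239* it was -2.13 ± 0.44 (edgeR unadjusted p = 0.00391, adjusted p = 0.539) and lay between -2.56 and -1.82 over fits that each dropped 1 library. *Ste:CG33237* had -2.04 ± 0.50 and *Ste:CG33242* -1.70 ± 0.76, the latter not past an unadjusted p of 0.05. Of the 9 *Stellate* genes tested, all had every RU486 value below every control value, against 7.83% of all genes tested. All 9 passed the filter through the controls alone, where they were higher, so these counts support nothing by themselves.

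The other 24 members tested had smaller fitted differences and larger errors. Their log2 fold changes were -0.78 to -1.22, with standard errors of 0.58 to 1.21, and no edgeR p among them was under 0.138 before adjustment. Values for *Mst77F* were -1.14 ± 1.12, for *Mst98Ca* -1.01 ± 1.15, for *S-Lap1* -1.13 ± 1.15 and for *dj* -1.22 ± 1.12. In RU486 replicates 1 and 3 all 24 lay below every control, and in replicate 2 all 24 lay within the control range. As a median over the 24 genes, the 3 RU486 libraries stood at 3.28%, 98.8% and 37.4% of the control mean. The 13 *Stellate* genes stood at 8.62%, 27.4% and 30.8%, so in replicate 2 *Stellate* was low where the others were not. The median log2 fold change of all members tested was -0.60 without RU486 replicate 1 and -2.34 without RU486 replicate 2. *Mst85C* had a log2 fold change of -0.01 ± 0.10, and its sign turned in 6 alternative fits.

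**Figure D4:**
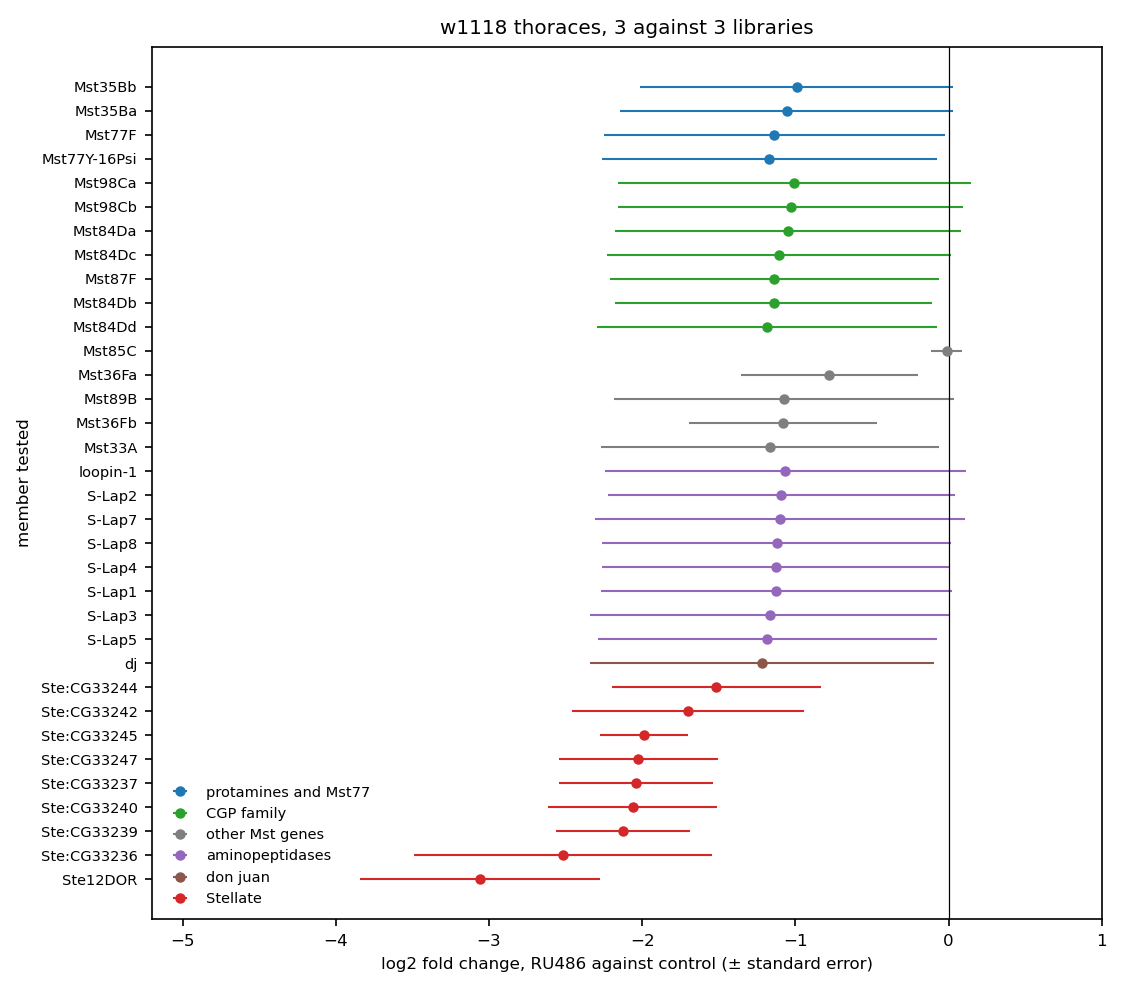
Log2 fold change of RU486 against control with its standard error for the 34 members tested in *w1118* thoraces, 3 libraries against 3, coloured by role. The 9 *Stellate* genes tested lie at -1.52 to -3.06, the other members near -1.1 with long bars, and *Mst85C* at -0.01.

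Seminal fluid genes were also lower in *w1118* RU486 libraries: 27 of the 29 accessory gland genes tested had lower fitted levels, against 54.3% of all genes. Their median log2 fold change was -1.95, with none at an adjusted p under 0.05 (edgeR). At an unadjusted p under 0.05, 2 were lower, against 4.08% of all genes, and 1 was higher, against 5.12%. Of the 34 genes listed, 28 to 33 had at least 10 reads in each control, but 18 in RU486 replicate 1. Some may thus have passed the filter through the controls, where they were higher. The count with lower fitted levels therefore supports nothing by itself. The part of reproductive tract content in the values of the members was not tested. In bulk samples, fewer cells of a type and less RNA per cell cannot be told apart.

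In *Act88F-GS-Gal4* thoraces, where RU486 also activates GeneSwitch in flight muscle, few members could be compared. At least 1 read was found for 27 of the 38 over the 6 libraries, and 5 passed the filter. No member was called at an adjusted p under 0.05, against 19.9% of all 10600 genes called lower and 12.6% called higher. At an unadjusted p under 0.05, 1 was lower and 1 higher by edgeR, against 24.8% and 19.2% of all genes. DESeq2 called 1 higher at an adjusted p under 0.05, against 16.7% of all genes, and limma voom none. The log2 fold change of *S-Lap1* was 1.71 ± 0.65 (edgeR adjusted p = 0.0917), and all 3 RU486 libraries lay above all controls, as they did for 28.0% of all genes. DESeq2 called *S-Lap1* with a log2 fold change of 1.74, as did edgeR without RU486 replicate 1 (2.07), and it was 0.70 without RU486 replicate 3, the library with the highest value. *Mst85C* had a log2 fold change of -0.24 ± 0.08 (edgeR adjusted p = 0.0612), with every RU486 value below every control value, as for 23.1% of all genes. Fitted levels were lower for 2 of the 5, against 48.9% of all genes. The values of *Mst36Fa*, *Mst36Fb* and *Mst77F* were 0.06 ± 0.18, -0.15 ± 0.23 and 0.12 ± 0.40. The other 33 members did not pass the filter and were not tested.

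In *elav-GS-Gal4* heads the comparison of RU486 with control turned on which control library was read. Only 5 members passed the filter, and none was called at an adjusted p under 0.05 by edgeR, against 0.779% of all 10653 genes called lower and 5.0% called higher. All 5 had lower fitted levels, against 49.6% of all genes. At an unadjusted p under 0.05, 3 were lower, against 10.5%, DESeq2 called 4 lower at an adjusted p under 0.05, against 8.17% of all genes, and limma voom none. Log2 fold changes were -7.25 ± 2.11 for *S-Lap1*, -6.82 ± 2.02 for *Mst77F*, -2.20 ± 0.82 for *Mst36Fb* and -1.94 ± 0.85 for *Mst36Fa*, and -0.02 ± 0.08 for *Mst85C*. Of the 5 members tested, 3 had every RU486 value below every control value, against 6.20% of all genes tested. Another 8 members that did not pass the filter had the same order, and the third control held 1 to 4 reads of each.

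Without head control 3, the 25 members tested included 24 called lower by edgeR, beside 2511 of all 12548 genes (20%). Of these 25 members, 20 passed the filter through head controls 1 and 2 alone, the libraries already described as high, so the count supports nothing by itself. Without head controls 1 and 2, which leaves a lone control assumed to vary like the RU486 libraries, none of 5 was called and the median log2 fold change was -0.10. The log2 fold change of *S-Lap1* was then -0.17. In CPM, head control 1 stood above head control 3 by 7.15-fold for *Mst36Fa*, 255-fold for *S-Lap1* and at least 1162-fold for *Mst84Da*. Both are libraries of the same label.

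The difference between the responses of both thorax stocks was tested in 1 fit of the 12 thorax libraries, as the change in *Act88F-GS-Gal4* minus that in *w1118*. Of 34 members tested, none was called at an adjusted p under 0.05 (edgeR), against 11.9% of all 13019 genes called lower and 4.29% called higher. None was at an unadjusted p under 0.05 (edgeR), against 17.8% of all genes lower and 11.9% higher. DESeq2 and limma voom called none of the members at an adjusted p under 0.05. For *S-Lap1* the difference was 2.78 ± 1.63 on the log2 scale and for *Mst85C* -0.24 ± 0.12. Most members had almost no read in *Act88F-GS-Gal4*, so their fitted differences depend on the prior count and were not read.

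Levels in males not given the drug were compared between stocks. Stock cannot be told apart here from other differences between these sets of libraries. Reads mapping to more than 1 place were 8.07% to 9.66% of listed reads in *Act88F-GS-Gal4* controls. In *w1118* controls they were 3.76% to 4.95%. In *Act88F-GS-Gal4* controls, 33 of the 34 members tested were lower than in *w1118* controls at an adjusted p under 0.05 (edgeR), against 38.0% of all 12828 genes called lower and 23.5% called higher. At an unadjusted p under 0.05 the count was also 33, against 40.1% of all genes, as was the count with a lower fitted level, against 57.2%. The same 33 had every *Act88F-GS-Gal4* value below every *w1118* value, against 38.7%. Of the 34, 29 passed the filter through the *w1118* libraries alone, where they are high, so these counts support nothing by themselves. The size was at least 2629-fold for *dj* and at least 1449-fold for *Mst33A*, both with no read in *Act88F-GS-Gal4* controls. For genes with reads in both groups the *w1118* level was 894-fold higher for *S-Lap1* (95% counting interval 687 to 1187), 117-fold for *Mst77F* (96.1 to 145) and 8.75-fold for *Mst36Fa* (7.43 to 10.4). *Mst85C* was the exception, with a log2 fold change of 0.21 ± 0.11 (edgeR adjusted p = 0.125).

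Other testis genes were listed beside the members. The testis meiotic arrest complex (tMAC) and testis TAFs are the spermatocyte regulators that switch on many of these genes. A list of 13 genes holds such regulators and also *CG5204* (*kmg*), which is neither a tMAC nor a testis TAF gene. Summed over the 13, the *w1118* controls held 41.1, 56.8 and 64.7 CPM and the RU486 libraries 20.3, 32.4 and 27.6. Every RU486 value thus lay below every control value. The same sum was 20.4 to 26.0 CPM in *Act88F-GS-Gal4* thoraces and 17.0 to 20.4 in RU486 heads, where the members were low. It therefore includes a base level, which RU486 replicate 1 did not exceed. All 13 had lower fitted levels in *w1118* after RU486, against 54.3% of all genes, and their median log2 fold change was -1.75. By edgeR, 9 were lower at an unadjusted p under 0.05, against 4.08%, and none at an adjusted p under 0.05. In each control all 13 had at least 10 reads, but in RU486 replicate 1 only 8 had. *aly*, *comr* and *nht* had 5, 2 and 1 reads there, so they passed the filter only through the controls, where they were higher. These counts therefore support nothing by themselves. Singled out after their values were seen, *aly* had -2.28 ± 0.86, *can* -1.75 ± 0.72, *sa* -1.88 ± 0.66 and *nht* -2.54 ± 1.004.

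The level of *can*, a testis TAF, was 2.27, 4.44 and 4.61 CPM in *w1118* controls and 0.295, 1.81 and 1.31 after RU486. In RU486 replicate 2, *can* was thus below every control, while the members other than *Stellate* lay within the control range. In all, 7 regulators (*aly*, *comr*, *can*, *sa*, *nht*, *wuc* and *tomb*) summed to 62.5, 65.2 and 62.0 reads per 1000 *betaTub85D* reads in *w1118* controls and to 140, 30.2 and 50.2 after RU486. In head controls 1 and 2 they summed to 53.2 and 74.4.

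Among 50 other spermatocyte and sperm genes, 48 were tested in *w1118*. All 48 had lower fitted levels after RU486, against 54.3% of all genes. None was lower at an unadjusted p under 0.05 (edgeR), against 4.08%. Their median log2 fold change was -1.19. In RU486 replicate 1, 37 of the 50 had at least 10 reads. Genes short of that could pass the filter through the controls, where they were higher. The count with lower fitted levels therefore supports nothing by itself. The sum over the 50 was 1094, 1824 and 2031 CPM in *w1118* controls and 320, 1579 and 836 after RU486. It was 355 to 575 CPM in *Act88F-GS-Gal4* thoraces, where *bol* alone stood at 163 to 299. This sum therefore also includes a base level, and RU486 replicate 1 lay below it. Between 13 and 19 of the 50 had at least 10 reads in each *Act88F-GS-Gal4* library, and 48 in each *w1118* control and in head controls 1 and 2. The *Suppressor of Stellate* repeats, 42 symbols in the files, summed to 1.25 to 1.39 CPM in *w1118* controls, 1.12 to 1.43 after RU486, 0.996 to 1.47 in *Act88F-GS-Gal4* thoraces and 0.198 to 0.365 in heads. These copies share sequence with each other and with *Stellate*, and 17 to 38 of them had no read in a given library.

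**Figure D5:**
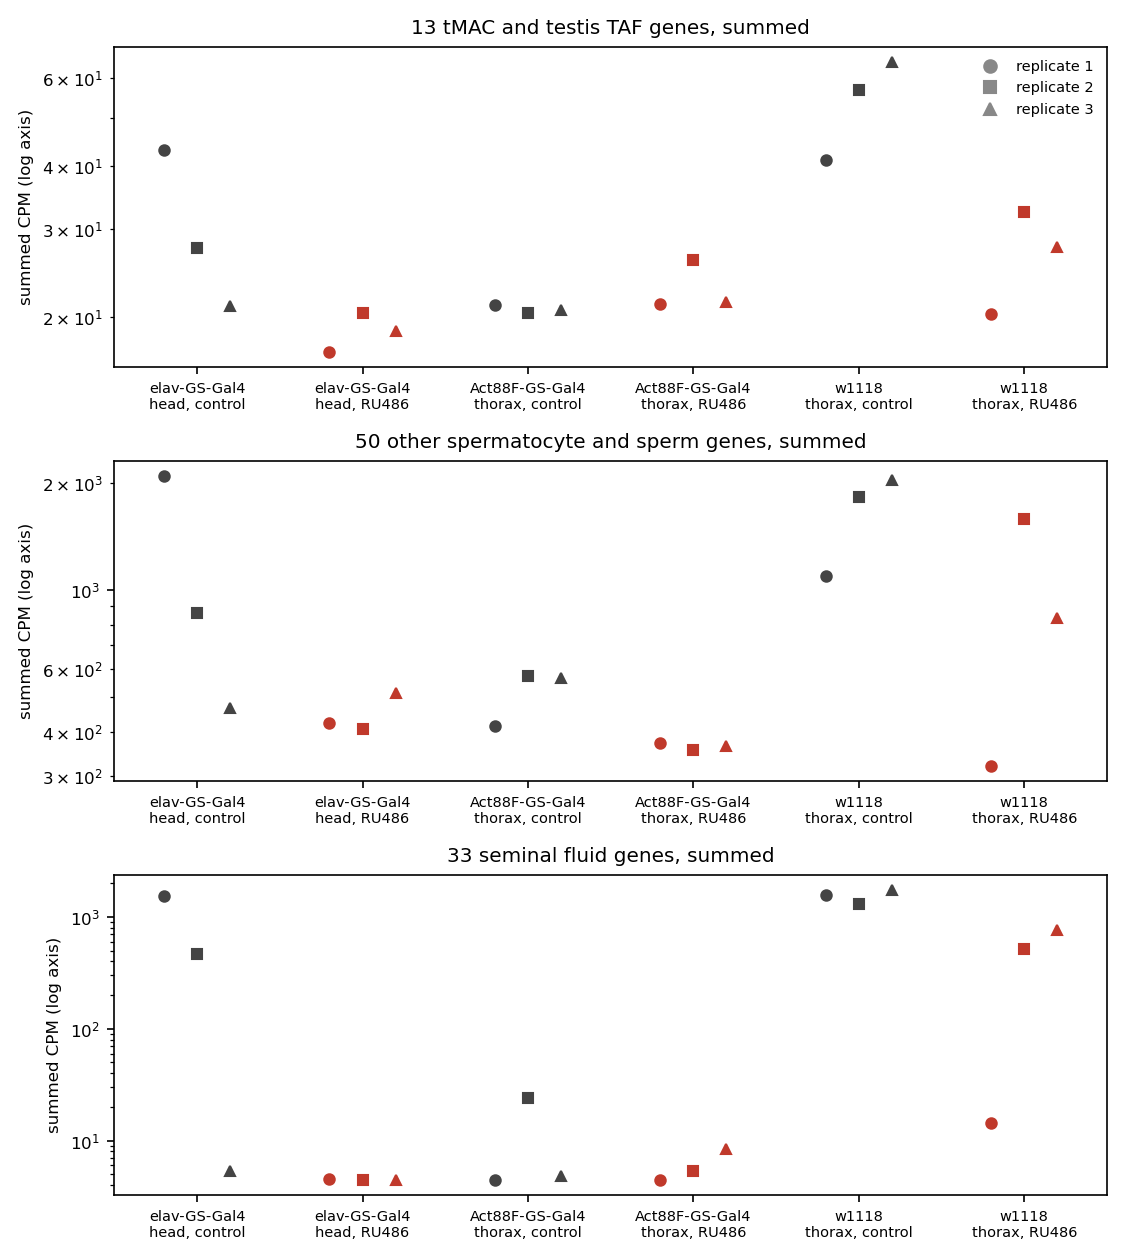
Summed CPM (log axes) in each library, grey for control and red for RU486. The panels show 13 regulator genes (tMAC, testis TAFs and *CG5204*), 50 other spermatocyte and sperm genes and 33 seminal fluid genes. In *w1118* all 3 RU486 libraries lie below the controls for the regulators and the seminal fluid genes, while replicate 2 lies within the control range for the sperm genes.

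By position in BDGP6.54, 13 members lie on X (all *Stellate*), 10 on 3R, 5 on 2L, 5 on 3L, 4 on 2R and 1 is unplaced. The 12 *Ste:* genes form 1 tandem array at X:14046772-14061817, which spans 15046 bases. The 4 *Mst84D* genes lie at 3R:7363307-7366262, within 2956 bases, and *Mst98Ca* and *Mst98Cb* are neighbours at 3R:28291338-28293863. *Mst35Ba* and *Mst35Bb* lie at 2L:14879050-14883721. An exon of 5 members overlaps another gene, always on the other strand, by up to 269 bases for *Mst84Da* and *MstProx*, and reads there can be told apart only if the counting used strand, which is not given in the sources used here.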

How the data were processed

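RNA was sequenced from thoraces and heads of males with a stranded mRNA kit (TruSeq). The authors used StrongARM to map the reads (build BDGP5.75) and HTSeq to assign them to genes. The submitters' notes also name dm3, BWA and STAR. The deposited values are raw counts per gene. Versions and the strand setting of the counting are not given in the sources used here. Rows naming no gene (14.5% to 29.9% of listed reads) were left out. The authors' own analysis used FPKM and an unequal-variance test, which entered here only as an alternative.

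From the counts, CPM scaled by TMM, FPKM from exon lengths in BDGP6.54, a later build, and log2 fold changes were computed with R 4.3.3, edgeR 4.0.16 (quasi-likelihood test, Benjamini-Hochberg adjustment over all genes tested), limma 3.58.1 and DESeq2 1.42.0. Each comparison was fitted on its own groups after filterByExpr, the filter of edgeR on low counts. The fits were tested on simulated data. Intervals are exact (Clopper-Pearson, 95%) and cover counting error only, and a group with no read was set at 3 counts. A member with at least 10 counts was taken as detected. Chi-square values per degree of freedom between replicates were 12.6 to 458, so none was counted as a repeat of another.

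Same-numbered *w1118* samples deviated together (r 0.303 to 0.566 in every pair), though RU486 replicate 2 went further with control 3 (r 0.448). A pairing by replicate number was thus borne out only in part, and the main fits did not use it. It was fitted as a block among the alternatives. For same-numbered samples r was -0.147 to 0.0519 in *Act88F-GS-Gal4* and -0.0646 to 0.0725 in *elav-GS-Gal4*. Members and gene lists were chosen with earlier results of these data known. Values per sample are given for the 3 members of each role with the highest mean CPM over all 18 samples, and for the 2 largest rises and falls of a comparison with over 12 calls. *Mst84Da*, *Mst84Db*, *Mst84Dc*, *Mst36Fa*, *Mst89B*, *S-Lap5*, *Ste:CG33245* and *Ste12DOR* were named after their values were seen. Alternatives were other scalings, filters, tools, the replicate block, 1 fit of all samples and leaving out each library.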

Additional observations from a re-analysis of the deposited data

Results flagged for a closer look

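*S-Lap1* had a log2 fold change of 1.71 with RU486 in *Act88F-GS-Gal4* thoraces, where every RU486 library lay above every control, and of -7.25 in *elav-GS-Gal4* heads, where every RU486 library lay below every control. It is given here because all samples of one tissue lay one way and all samples of the other the opposite way. The difference between both tissues was not tested. The value in heads was -0.17 without head controls 1 and 2, and the value in thoraces was 0.70 without RU486 replicate 3. With 3 samples a group, no test for single outlying samples was made.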

How the results depend on the processing

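Counts of members called at an adjusted p under 0.05 moved as follows. In *Act88F-GS-Gal4* thoraces the count called higher was 1 with DESeq2 and 0 to 1 on leaving out a library. In *w1118* thoraces the count called lower was 2 with DESeq2. In *elav-GS-Gal4* heads the count called lower was 4 with DESeq2 and 0 to 24 on leaving out a library, with 24 without head control 3. In 1 fit of all 18 samples it was 24 of 34 members tested, beside 2676 of all 13235 genes. Only 5 members were tested in the fit of heads alone. In the fit of all samples, members could pass the filter through *w1118* libraries and head controls 1 and 2, where they are high. That count therefore supports nothing by itself. The cause of these moves was not tested. The mean summed CPM of *Act88F-GS-Gal4* controls was 16.6 when scaled by total counts only. That scaling moved the median log2 fold change of all genes to 0.18 in *Act88F-GS-Gal4*, -0.35 between stocks and 0.27 for the difference of responses.

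Signs of log2 fold changes turned as follows, and the cause was not tested. In *Act88F-GS-Gal4* thoraces *Mst36Fa* was at -0.0222 to 0.133 on leaving out a library, *Mst36Fb* at 0.0212 with total counts only, and *Mst77F* at -0.113 with limma voom and -0.366 to 0.395 on leaving out a library. In heads *Mst36Fa* was at 0.117 without controls 1 and 2, a setting chosen after seeing the data that leaves 1 control. *Mst85C* in heads was at 0.0127 with no filter and -0.0836 to 0.0740 on leaving out a library. In *w1118*, *Mst85C* was at 0.0181 with DESeq2 size factors, 0.0189 with DESeq2, 0.00588 with upper quartile scaling and -0.0504 to 0.0461 on leaving out a library. Between stocks, *Mst85C* was at -0.0210 with total counts only.

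With the replicate block, the count of members called was 0 in each RU486 comparison and 33 between stocks, as without it. Of 722 other values, single genes among them, 673 kept their direction and side of the threshold or moved little, 16 crossed it, 18 moved and 15 reversed. Members with few reads outside *w1118* are limited by depth.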
